A study of Mus musculus with 160 samples.

Results

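The striatum and the cerebral cortex of R6/2 mice were compared gene by gene, to ask which differences between the regions remain in this model of Huntington's disease. The comparison used 20 of the 160 libraries of the series, 10 of striatum and 10 of cortex from R6/2 mice given vehicle, chosen by their labels of genotype, region and treatment. The same regions of wild-type (WT) mice given vehicle, 10 libraries each, showed how large each difference is without the transgene. R6/2 mice (Tg(HDexon1)62Gpb) carry a transgene of exon 1 of the human HTT gene with an expanded CAG repeat under the human HTT promoter. All mice were 12 weeks old on a C57BL/6J background, and tissue was taken from the left striatum or left cortex 6 h after a single oral dose of the cyclodextrin vehicle. Each group held 5 females and 5 males. A further 40 libraries of both regions, from other R6/2 and WT mice given 10 mg/kg of CHDI-00340246 in place of vehicle, served as a repeat in separate animals.

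The striatum is built mostly of GABAergic spiny projection neurons, which receive glutamate from the cortex and dopamine from the midbrain. Those of the indirect pathway carry the dopamine D2 receptor and enkephalin, and those of the direct pathway carry the D1 receptor, dynorphin and substance P. The cortex is built mostly of glutamatergic projection neurons arranged in layers, with GABAergic interneurons among them. In Huntington's disease the spiny neurons are the cells most affected, and loss of striatal transcripts is a known feature of the R6/2 line.

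Depth was similar between the groups. R6/2 striatum libraries held 33429823 to 46301317 estimated counts and R6/2 cortex libraries 28471184 to 39616216. WT striatum libraries held 30192678 to 41361091 and WT cortex libraries 32462607 to 44245124. Levels are given in CPM, counts scaled to the library's total after TMM normalization, and 3 counts correspond to 0.0648 to 0.105 CPM depending on the library. Cortex libraries differed in genes of striatal and cholinergic neurons. Lhx8, a transcription factor of striatal and basal forebrain cholinergic neurons, reached 0.875 to 2.67 CPM in 6 of the 10 R6/2 cortex libraries and 0.821 to 2.73 CPM in 3 of the 10 WT cortex libraries, and was at 0.0578 to 0.169 CPM and 0 to 0.0631 CPM in the others of each genotype. Neurod6, a factor of cortical glutamatergic neurons, reached 1.65 to 4.09 CPM in 3 R6/2 striatum libraries and 1.13 to 1.48 CPM in 4 WT striatum libraries, and stayed under 0.85 CPM in the others. In R6/2 cortex, Drd2 spanned 2.59 to 4.24 CPM in the libraries high in Lhx8 and 0.404 to 1.62 CPM in the rest. In WT cortex it spanned 3.75 to 9.85 CPM and 0.568 to 1.5 CPM. Chat and Six3 split the same cortex libraries. Where leaving these libraries out ended a printed R6/2 region call or genotype difference of a gene named below, or moved a printed list count by over 1.5 times, the value without them stands beside it. Cortex libraries high in Lhx8 were also high in Drd2, Chat and Six3, so leaving them out lowers the cortex level of such striatal genes. For these genes the value without them follows from that choice and is no separate test of the genotype difference. The fit without them kept 4 R6/2 and 7 WT cortex libraries, and its R6/2 male cortex mean rested on title replicate 3 alone. The sexes weighed equally in that fit, so its calls lean on that library.

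The R6/2 striatum and cortex still differed at most expressed genes. Of 17754 genes tested, 10906 (61.4%) differed between the regions in R6/2 mice by edgeR's quasi-likelihood test at a Benjamini-Hochberg adjusted p under 0.05, which is the rule for a called gene throughout. Of these, 5588 (31.5%) were higher in striatum and 5318 (30%) were higher in cortex. In WT mice, 11655 (65.6%) were called, 6176 (34.8%) higher in striatum and 5479 (30.9%) higher in cortex. Bulk tissue cannot separate fewer cells of a type from less RNA per cell, so each value is a level of the dissected tissue.

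Most calls were shared. In both genotypes 8596 genes were called in the same direction, which is 78.8% of the R6/2 calls and 73.8% of the WT calls. The log2 region differences had a Pearson correlation of 0.872 across the 17754 genes, which are not independent replicates, between groups that share no library. Fewer genes differed by a large amount in R6/2 mice. At an absolute log2 difference of at least 1, the R6/2 regions differed at 1947 genes, 801 higher in striatum and 1146 higher in cortex, and the WT regions at 2543 genes, 1171 higher in striatum and 1372 higher in cortex.

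The difference between the genotypes was tested directly, as the R6/2 region difference less the WT one. It was called for 4285 genes (24.1%), with 1946 (11%) shifted toward striatum in R6/2 and 2339 (13.2%) shifted toward cortex. Over all called and uncalled genes its median was -0.01 on the log2 scale. Counts of list members below are to be read beside these shares and those of the region calls above. On the authors' FPKM values, tested with limma, 68.9% of the calls were shifted toward striatum, against 45.4% in the counts, and 52% in the counts with relative log expression size factors. The FPKM values differ from the counts in unit, pseudocount and test together, and which of these moved the balance was not tested. Without the 6 R6/2 and 3 WT cortex libraries high in Lhx8, 2326 genes were called, and 2205 of the 4285 were called again in the same direction and none in the opposite one. At 276 genes (1.55%) the regions were called in opposite directions, 96 (0.541%) higher in striatum in R6/2 and higher in cortex in WT mice, and 180 (1.01%) the other way. A further 2034 genes were called only in R6/2 and 2783 only in WT mice, but the genotype difference itself was called for just 662 and 1096 of them.

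**Figure D1:**
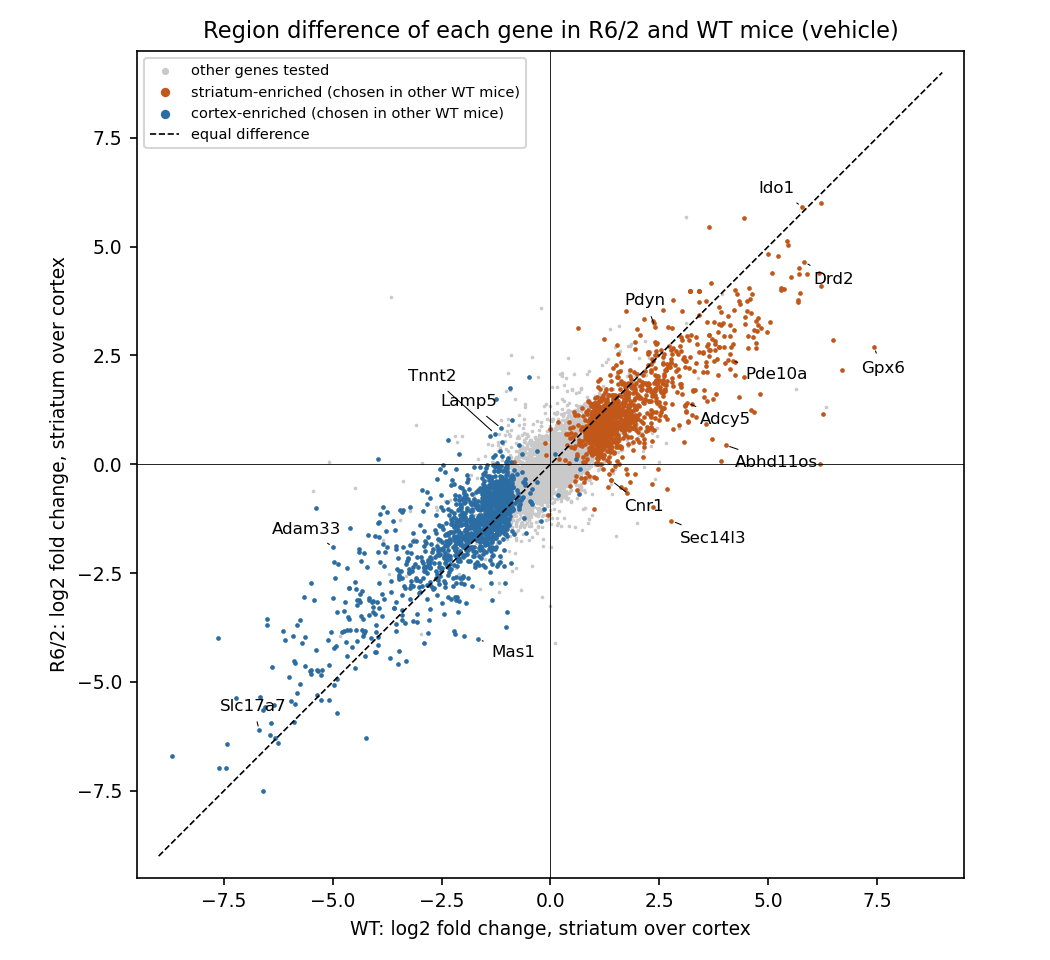
Each point is 1 of the 17754 genes, with its log2 fold change of striatum over cortex in R6/2 mice on the vertical axis and in WT mice on the horizontal axis, 10 animals per genotype, coloured by the region in which it was enriched in other WT mice. Coloured points lie mostly between the dashed line of equal difference and the horizontal line at 0, while Cnr1, Sec14l3, Lamp5 and Tnnt2 sit on the opposite side of 0 in R6/2.

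The mice given CHDI-00340246 were fitted alone and gave nearly the same regional map. In their R6/2 libraries 10921 of 17751 genes (61.5%) were called between the regions. Of the 10872 vehicle calls tested there, 9475 were called in the same direction, which is 87.2% of the vehicle calls and 87.1% of the calls in treated mice, and none was called in the opposite one. A genotype difference was called for 3849 genes (21.7%) in the treated mice. Of the 1941 vehicle genes shifted toward striatum and tested there, 1928 had the same sign and 1281 were called (9.61% of all genes were called in that direction). Of the 2334 shifted toward cortex, 2322 had the same sign and 1652 were called (12.1% of all genes).

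Regional identity was followed through genes enriched in 1 region of WT mice. The sets were chosen in the 20 WT libraries of the CHDI-00340246 arm, at an adjusted p under 0.05 and a log2 difference of at least 1. No library that chose a gene therefore enters the vehicle values below. The values of treated R6/2 mice come from a fit that also holds those 20 WT libraries. Of 1163 striatum-enriched genes, 1153 passed the filter on low counts in the vehicle libraries. In R6/2 mice 1017 of them (88.2%) were still higher in striatum, 9 were higher in cortex and the rest were not called. In WT vehicle mice 1116 were higher in striatum. The size of the difference was smaller: the median gene was 2.13-fold higher in striatum in R6/2 mice (log2 1.09) and 2.74-fold higher in WT mice (log2 1.46). The difference was called smaller in R6/2 for 434 genes (37.6%) and larger for 11 (0.954%). Over all genes tested, 17.8% had a called genotype difference that ran against their WT region difference and 2.4% one that ran with it. In treated R6/2 mice 1032 of 1152 of these genes were higher in striatum (30.3% of all genes), with a median of 1.18 on the log2 scale.

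Genes enriched in cortex were followed in the same way. Of 1327 chosen, 1312 were tested and 1201 (91.5%) were still higher in R6/2 cortex, 7 were higher in R6/2 striatum and the rest were not called. The median gene was 2.53-fold higher in cortex in R6/2 mice (log2 -1.34) and 2.96-fold higher in WT mice (log2 -1.57). The difference was called smaller in R6/2 for 528 genes (40.2%) and larger for 62 (4.73%). In treated R6/2 mice 1209 of the 1312 were higher in cortex (31.3% of all genes), with a median of -1.36. Whether the 2 sets differ in these shares was not tested.

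Narrowed genes were found among weakly and strongly enriched ones. Among striatum-enriched genes with a choosing log2 difference of 1 to 2, 2 to 3 and 3 or more, 35.7% of 787, 50.5% of 182 and 33.2% of 184 had a smaller difference in R6/2. The median differences were 0.90, 1.67 and 2.77 in R6/2 mice, against 1.23, 2.33 and 3.72 in WT mice. Among cortex-enriched genes the shares were 38.2% of 859, 44.6% of 258 and 43.6% of 195. Their medians were -1.04, -1.87 and -3.39 in R6/2 mice, against -1.32, -2.34 and -4.29 in WT mice.

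Most narrowed genes of each set were lower in R6/2 in the region where they are enriched, as read from the genotype comparison within each region. These comparisons use the same libraries as the test of narrowing, so they describe it and do not support it. Within striatum 28.5% of all genes were lower and 27.7% higher in R6/2 than in WT mice, and within cortex 25.1% were lower and 26.2% higher. Of the 434 narrowed striatum-enriched genes, 385 fell in R6/2 striatum, 98 rose in R6/2 cortex, 52 of these did both and 3 did neither. Of the 528 narrowed cortex-enriched genes, 397 fell in R6/2 cortex and 231 rose in R6/2 striatum, and 5 did neither. Over all 1153 striatum-enriched genes, the median log2 change from the transgene was -0.54 in striatum and -0.07 in cortex. Over all 1312 cortex-enriched genes it was -0.06 in striatum and -0.39 in cortex.

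**Figure D2:**
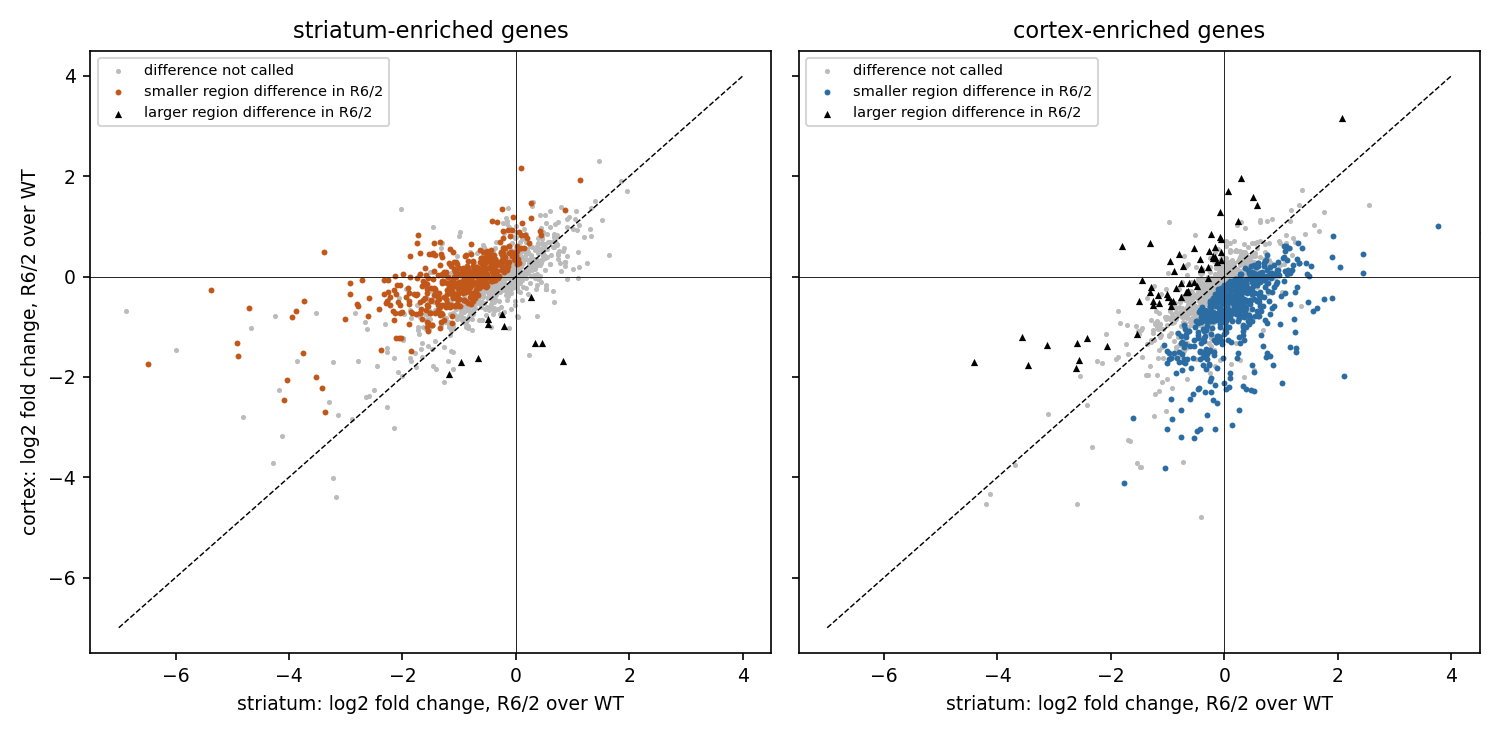
Each point is a gene, with its log2 fold change of R6/2 over WT in striatum on the horizontal axis and in cortex on the vertical axis, for striatum-enriched genes at left and cortex-enriched genes at right. The 434 coloured striatum-enriched genes spread mainly to the left of 0 and the 528 coloured cortex-enriched genes mainly below it, and black triangles mark the 11 and 62 genes with a larger region difference in R6/2.

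Markers of indirect pathway neurons stayed striatal. Of 9 genes tested, 8 were higher in R6/2 striatum than in R6/2 cortex and 1 was not called. Their median log2 difference was 2.13 in R6/2 mice and 3.52 in WT mice. The genotype difference was called toward cortex for 2, and for 4 without the cortex libraries high in Lhx8. The summed level of the list was 571.9 to 689.9 CPM in R6/2 striatum and 106.7 to 193 CPM in R6/2 cortex, against 1963 to 2913 CPM in WT striatum and 162 to 361 CPM in WT cortex. No member was at 0 in every library of a group. In R6/2 striatum 8 of the 9 fell relative to WT striatum (28.5% of all genes), and in R6/2 cortex 4 fell relative to WT cortex (25.1% of all genes).

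Drd2, the dopamine D2 receptor, ranged from 51.7 to 64.5 CPM in R6/2 striatum (median 57) and from 0.404 to 4.24 CPM in R6/2 cortex (median 2.8). The WT level ranged from 144.9 to 182 CPM in striatum (median 154.96) and from 0.568 to 9.85 CPM in cortex (median 0.864). Every striatum library was far above every cortex library in both genotypes. The log2 region difference was 4.65 ± 0.40 in R6/2 (SE, adjusted p = 4.5e-12 by edgeR) and 5.83 ± 0.41 in WT mice. The genotype difference of -1.18 was not called (adjusted p = 0.11). It was -1.63 (adjusted p = 3e-04) without the cortex libraries high in Lhx8, which also held the higher cortex levels of Drd2. Adora2a, the adenosine receptor that opposes D2 signalling in the same cells, had a log2 region difference of 4.31 in R6/2 and 5.52 in WT mice. Its genotype difference of -1.21 (adjusted p = 0.11) was called without those libraries (-2.03, adjusted p = 2.3e-06) and with the animal as a block (-1.70, adjusted p = 0.031). Penk, the enkephalin precursor, was at 268 to 357 CPM in R6/2 striatum and 7.45 to 39.6 CPM in R6/2 cortex, against 1255 to 2099 CPM in WT striatum and 29.8 to 173 CPM in WT cortex. Penk was lower in both R6/2 regions than in their WT counterparts, and its region difference was 13.4-fold in R6/2 and 22.9-fold in WT mice with no called genotype difference (adjusted p = 0.17 by edgeR). Gpr6, an orphan receptor of indirect pathway neurons, had log2 region differences of 4.83 in R6/2 and 5.01 in WT mice.

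Direct pathway markers also stayed mostly striatal. Of 9 tested, 8 were higher in R6/2 striatum, with a median log2 difference of 2.96 in R6/2 and 2.45 in WT mice. A genotype difference was called for 5, of which 2 shifted toward striatum and 3 toward cortex. Set against each gene's WT region difference, 4 of these narrowed (17.8% of all genes) and 1 widened (2.4% of all genes). The median genotype difference of the list was -0.48, though its median region difference was larger in R6/2. Pdyn, the dynorphin precursor, ranged from 57.4 to 87.9 CPM in R6/2 striatum (median 66.8) and from 3.66 to 10.9 CPM in R6/2 cortex (median 8.74). In WT mice it ranged from 111.9 to 145.5 CPM in striatum (median 135.4) and from 18.6 to 38.3 CPM in cortex (median 23). The groups did not overlap between regions or between genotypes, and both R6/2 regions were below their WT counterparts. The striatum stood 8.86-fold above cortex in R6/2 and 5.31-fold in WT mice. This widening of 0.74 on the log2 scale was called (adjusted p = 0.0086 by edgeR), was larger in the treated mice (1.63, adjusted p = 2.8e-11) and was lost without the libraries of title replicate 4 (0.67, adjusted p = 0.053).

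Drd1, the dopamine D1 receptor, narrowed in place of widening. It was at 90.1 to 130.1 CPM in R6/2 striatum and 8.52 to 17.1 CPM in R6/2 cortex, against 258 to 322 CPM in WT striatum and 10.8 to 42.4 CPM in WT cortex. The log2 region difference was 2.96 in R6/2 and 3.98 in WT mice, a change of -1.02 (adjusted p = 0.0089 by edgeR) that was not called without the striatum libraries high in Neurod6 (adjusted p = 0.058) or without title replicate 2 or 3 (adjusted p = 0.11 and 0.065). Chrm4, the muscarinic M4 receptor of direct pathway neurons, narrowed to a log2 difference of 0.63 in R6/2, against 1.77 in WT mice. Tac1, the substance P precursor, had a median of 223 CPM in R6/2 striatum and 243 CPM in WT striatum. Its region difference was 3.74 in R6/2 and 3.57 in WT mice (genotype difference 0.17, adjusted p = 0.81). Isl1, a transcription factor that specifies direct pathway neurons, was at 21.5 to 25.6 CPM in R6/2 striatum and 0.0289 to 5.34 CPM in R6/2 cortex. Its genotype difference of -1.13 was not called (adjusted p = 0.26) and was -2.50 without the cortex libraries high in Lhx8 (adjusted p = 4.4e-04).

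The signalling machinery that both kinds of spiny neuron share narrowed in most of its members. Of 28 genes tested, 25 were higher in R6/2 striatum, 1 was higher in cortex and 2 were not called, against 27 higher in WT striatum. The genotype difference was called toward cortex for 18 (13.2% of all genes) and toward striatum for 2 (11% of all genes). Without the striatum libraries high in Neurod6, 13 of the 28 were called toward cortex. In R6/2 striatum 26 of the 28 fell relative to WT striatum (28.5% of all genes), and in R6/2 cortex 18 fell relative to WT cortex (25.1% of all genes). The summed level was 7391 to 9264 CPM in R6/2 striatum and 1861 to 2552 CPM in R6/2 cortex, against 19579 to 22505 CPM in WT striatum and 2887 to 4496 CPM in WT cortex.

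Pde10a, the phosphodiesterase that degrades cyclic AMP and cyclic GMP in spiny neurons, ranged from 338 to 564 CPM in R6/2 striatum (median 395) and from 56.8 to 99.5 CPM in R6/2 cortex (median 82.2). The WT level ranged from 1446 to 1878 CPM in striatum (median 1734) and from 45.9 to 194 CPM in cortex (median 65.8). The striatum libraries of the genotypes did not overlap, while the cortex libraries did. The striatum was 5.13-fold above cortex in R6/2 and 18.9-fold in WT mice, a log2 genotype difference of -1.88 ± 0.26 (SE, adjusted p = 8.6e-07 by edgeR). Adcy5, the main striatal adenylyl cyclase, was at 336 to 456 CPM in R6/2 striatum and 128.4 to 172 CPM in R6/2 cortex, against 1246 to 1512 CPM in WT striatum and 97.9 to 248 CPM in WT cortex. Its region difference was 2.67-fold in R6/2 and 8.82-fold in WT mice (adjusted p = 1.1e-10), and its cortex levels gave no called genotype difference (log2 -0.03, adjusted p = 0.86). Pde1b, a calmodulin-dependent phosphodiesterase, narrowed to 4.43-fold in R6/2, against 9.86-fold in WT mice. Ptpn5, the striatum-enriched tyrosine phosphatase STEP, narrowed to 2.71-fold in R6/2, against 4.38-fold in WT mice.

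Some members of this list fell in both regions. Ppp1r1b, which encodes the dopamine-regulated phosphatase inhibitor DARPP-32, ranged from 456 to 751 CPM in R6/2 striatum and from 16.8 to 51.7 CPM in R6/2 cortex. In WT mice it ranged from 1654 to 2200.5 CPM in striatum and from 57.8 to 199 CPM in cortex. Both R6/2 regions lay wholly below their WT counterparts. The striatum was 16.1-fold above cortex in R6/2 and 18.9-fold in WT mice, with no called genotype difference (log2 -0.23 ± 0.27 SE, adjusted p = 0.60 by edgeR). Scn4b, a sodium channel beta subunit, fell by 3.36 on the log2 scale in R6/2 striatum and by 2.69 in R6/2 cortex, and its region difference was 9.28-fold in R6/2 and 14.7-fold in WT mice (adjusted p = 0.0082 for the genotype difference, and 0.058 without the striatum libraries high in Neurod6). Rgs9, a regulator of dopamine and opioid receptor signalling, had log2 region differences of 3.37 in R6/2 and 4.77 in WT mice (adjusted p = 0.01 for the genotype difference, and 0.062 without the striatum libraries high in Neurod6).

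Of the shared list, 2 genes widened. Gad1, the GABA-synthesising enzyme glutamate decarboxylase, was at 481 to 611 CPM in R6/2 striatum and 162 to 282 CPM in R6/2 cortex, against 714 to 829.8 CPM in WT striatum and 350.4 to 469.8 CPM in WT cortex. It fell further in cortex (log2 -0.90) than in striatum (log2 -0.51), and the region difference grew by 0.40 (adjusted p = 1.9e-04 by edgeR). Ankrd63, a striatum-enriched ankyrin-repeat gene, grew by 0.96 (adjusted p = 0.007), with a change of -0.66 in striatum and -1.62 in cortex.

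**Figure D3:**
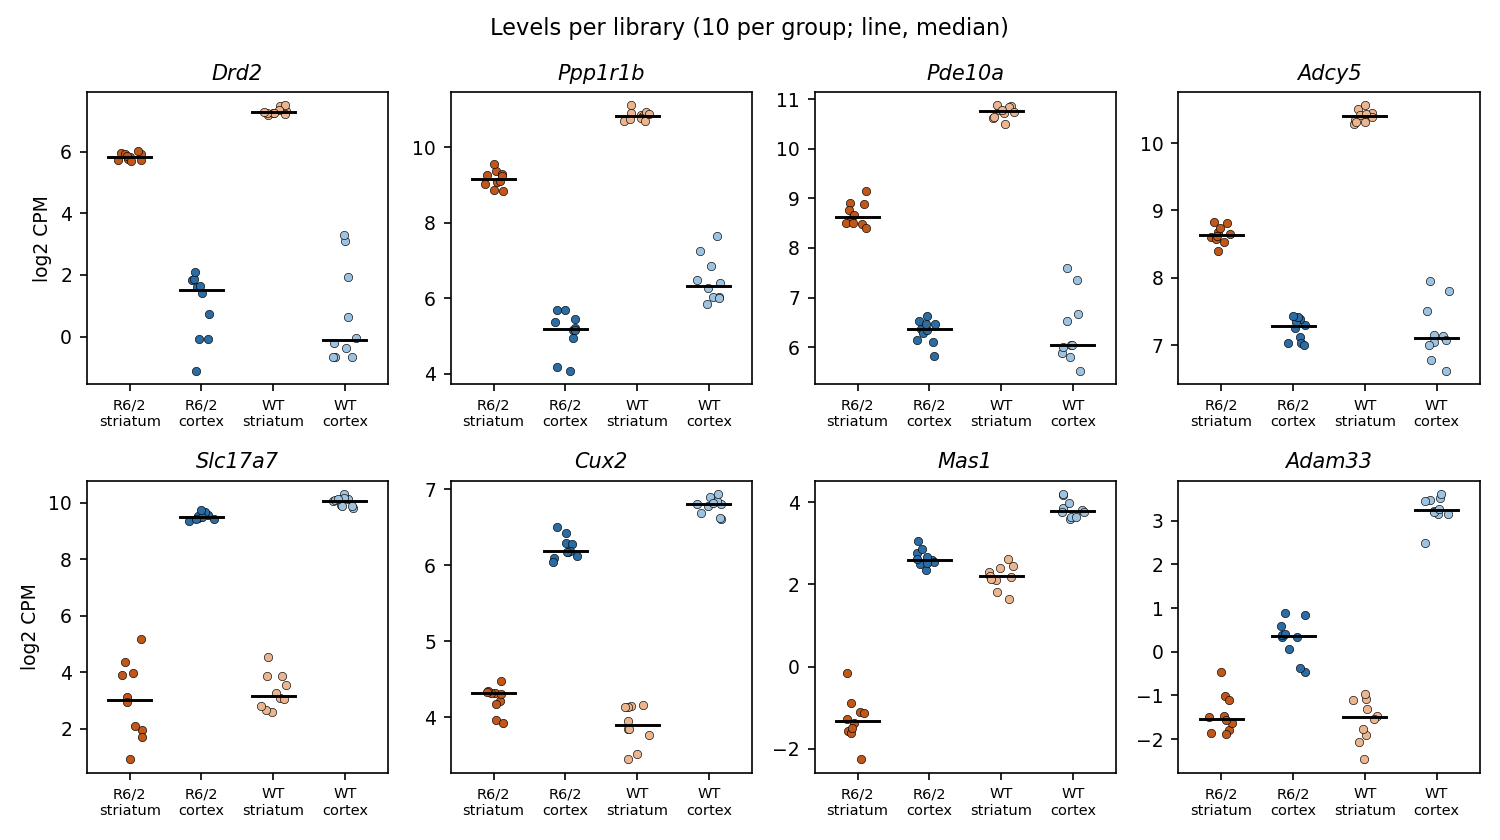
Each point is 1 library, on a log2 CPM axis, with the groups in the order R6/2 striatum, R6/2 cortex, WT striatum and WT cortex, and a line at the median of 10. Drd2, Ppp1r1b, Pde10a and Adcy5 are lower in R6/2 than in WT striatum and stay above R6/2 cortex, Slc17a7 stays cortical, Cux2 is higher in R6/2 than in WT striatum and lower in R6/2 than in WT cortex, and Mas1 and Adam33 change more in 1 region than in the other.

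The transcription factors of the striatum mostly stayed striatal. Of 25 tested, 18 were higher in R6/2 striatum and 4 in R6/2 cortex, with a median log2 difference of 1.67 in R6/2 and 2.31 in WT mice. A genotype difference was called toward cortex for 9 and toward striatum for 1 (0 with the animal as a block). Without the cortex libraries high in Lhx8, 12 were called toward cortex, and without the striatum libraries high in Neurod6, 6 were. Rarb, a retinoic acid receptor needed for spiny neuron development, was at 68.7 to 86.6 CPM in R6/2 striatum and 6.87 to 15.5 CPM in R6/2 cortex, against 119.5 to 159.6 CPM in WT striatum and 7.48 to 19.6 CPM in WT cortex. The regions were apart in each genotype, and the striatum of R6/2 lay below that of WT mice. Its log2 region difference was 2.75 in R6/2 and 3.63 in WT mice, a change of -0.87 (adjusted p = 0.0021 by edgeR, and 0.055 without title replicate 2). Foxp1, a forkhead factor of spiny neurons, narrowed by 0.53 to a log2 difference of 1.23 in R6/2 (adjusted p = 3.8e-08). Six3, a homeobox factor needed for indirect pathway neurons, was at 40.1 to 57.4 CPM in R6/2 striatum and 0.289 to 6.47 CPM in R6/2 cortex, against 53.9 to 65.7 CPM in WT striatum and 0.18 to 6.55 CPM in WT cortex. Its genotype difference of -1.29 was not called (adjusted p = 0.11) and was -1.84 without the cortex libraries high in Lhx8 (adjusted p = 1.8e-04).

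Retinoid signalling genes were found higher in either region. Of 14 genes tested, 6 were higher in R6/2 striatum and 5 in R6/2 cortex (31.5% and 30% of all genes), against 10 and 3 in WT mice (34.8% and 30.9% of all genes). The median log2 difference was 0.04 in R6/2 and 0.43 in WT mice. The genotype difference was called toward cortex for 6, and for 3 without the cortex libraries high in Lhx8 and likewise without the striatum libraries high in Neurod6. Rxrg, the partner receptor of Rarb, narrowed to a log2 difference of 3.47 in R6/2, against 4.61 in WT mice (adjusted p = 0.0062 by edgeR, 0.072 without title replicate 2 and 0.065 without the striatum libraries high in Neurod6). Crabp2, a retinoic acid carrier, was higher in R6/2 cortex (log2 -0.58) and in WT striatum (log2 0.61), with the R6/2 call lost without the striatum libraries high in Neurod6 (adjusted p = 0.064). Crabp1, a related carrier, kept its striatal bias at 4.17 in R6/2 and 3.68 in WT mice. Cyp26b1, which degrades retinoic acid, was higher in R6/2 cortex (log2 -1.19), with no called difference in WT mice (log2 -0.20).

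Cholinergic neuron genes were also striatal in R6/2. Of 10 tested, 8 were higher in R6/2 striatum and 2 in R6/2 cortex, with a median log2 difference of 2.54 in R6/2 and 3.55 in WT mice. Their summed level was 122.6 to 148.9 CPM in R6/2 striatum and 59.3 to 107.6 CPM in R6/2 cortex, against 256 to 299 CPM in WT striatum and 50.7 to 104.1 CPM in WT cortex. Chat, choline acetyltransferase, was at 6.56 to 10.1 CPM in R6/2 striatum and 0.202 to 2.51 CPM in R6/2 cortex. In WT mice it was at 29.6 to 38.1 CPM in striatum and 0.21 to 5.02 CPM in cortex. The striatum libraries of the genotypes were fully apart, and the cortex libraries overlapped. Its log2 region difference was 3.06 in R6/2 and 4.74 in WT mice, a change of -1.68 that was not called (adjusted p = 0.057 by edgeR), but was -2.12 with the animal as a block (adjusted p = 0.031) and -2.03 without the cortex libraries high in Lhx8 (adjusted p = 8.7e-06). Slc5a7, the choline transporter, narrowed to a 6.46-fold difference in R6/2, against 17.8-fold in WT mice (adjusted p = 0.036, and 0.093 without the striatum libraries high in Neurod6). Ache, acetylcholinesterase, differed 1.15-fold in R6/2 and 1.81-fold in WT mice (adjusted p = 5.4e-07). A genotype difference was called toward cortex for 3 genes of the list, and for 7 without the cortex libraries high in Lhx8, which is the marker that chose those libraries and a member of the list.

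Of the genes with the largest striatum-higher differences in R6/2, several lie outside these lists. Ido1, indoleamine 2,3-dioxygenase of the kynurenine pathway, was at 8.52 to 15.3 CPM in R6/2 striatum and 0.0479 to 0.337 CPM in R6/2 cortex, against 20.8 to 34 CPM in WT striatum and 0.217 to 0.96 CPM in WT cortex. Both regions were lower in R6/2, and the log2 region difference was 5.92 in R6/2 and 5.78 in WT mice (genotype difference 0.15, adjusted p = 0.78 by edgeR). On the FPKM scale with a pseudocount of 1 the genotype difference of Ido1 was -0.81 (adjusted p = 1.5e-08 by limma). Cd4, which encodes a T cell coreceptor, was at 14.6 to 26.1 CPM in R6/2 striatum and 0.0527 to 0.462 CPM in R6/2 cortex, against 99.6 to 131.1 CPM in WT striatum and 0.627 to 3.75 CPM in WT cortex. Cd4 had the largest striatum-higher difference among the genes ranked by size, 64.3-fold in R6/2 and 73.9-fold in WT mice.

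Most cortical glutamatergic genes stayed higher in cortex. Of 22 tested, 17 were higher in R6/2 cortex and 3 in R6/2 striatum, with a median log2 difference of -2.28 in R6/2 and -2.03 in WT mice. Called genotype differences ran toward striatum for 5 (11% of all genes) and toward cortex for 7 (13.2% of all genes). As 5 members were higher in WT striatum, a shift toward cortex can also be a narrowing. Set against each gene's WT region difference, 9 narrowed (17.8% of all genes) and 3 widened (2.4% of all genes). Without the cortex libraries high in Lhx8, 3 ran toward striatum. Their summed level was 2888 to 3355 CPM in R6/2 striatum and 4690 to 5720 CPM in R6/2 cortex, against 5902 to 6837 CPM in WT striatum and 7320 to 9240 CPM in WT cortex. Slc17a7, the vesicular glutamate transporter VGLUT1, ranged from 1.83 to 36.5 CPM in R6/2 striatum (median 8.16) and from 649.8 to 851 CPM in R6/2 cortex (median 729). The WT level ranged from 5.94 to 23.3 CPM in striatum (median 9.02) and from 903 to 1279 CPM in cortex (median 1083). The regions were fully apart in both genotypes, and the cortex libraries of R6/2 lay below those of WT mice. Cortex exceeded striatum 68.9-fold in R6/2 and 103.4-fold in WT mice, and the genotype difference of 0.59 on the log2 scale was not called (adjusted p = 0.29 by edgeR). Neurod6 was at 0.218 to 4.09 CPM in R6/2 striatum and 58.4 to 85.2 CPM in R6/2 cortex, against 0.353 to 1.48 CPM in WT striatum and 62.6 to 82.4 CPM in WT cortex. Its log2 differences of -6.21 in R6/2 and -6.44 in WT mice were among the widest. Slc30a3, the synaptic vesicle zinc transporter, had log2 differences of -6.40 in R6/2 and -6.25 in WT mice.

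The region difference of several cortical transcription factors was smaller in R6/2. Of 30 tested, 23 were higher in R6/2 cortex and 6 in R6/2 striatum. The median log2 difference of the list was not smaller, at -1.55 in R6/2 and -1.49 in WT mice. The genotype difference was called toward striatum for 13 (11% of all genes) and toward cortex for 2 (13.2% of all genes). Neurod2, a basic helix-loop-helix factor of cortical neurons, rose in R6/2 striatum by 1.07 and its region difference changed by 0.95 (adjusted p = 0.018, and 0.19 without the cortex libraries high in Lhx8). Tbr1, a factor of deep-layer neurons, changed by 0.80 (adjusted p = 0.034), by 0.33 without the striatum libraries high in Neurod6 and by 0.69 without the cortex libraries high in Lhx8 (adjusted p = 0.30 in each). Emx1, a homeobox factor of the dorsal telencephalon, had differences of -5.51 in R6/2 and -5.88 in WT mice (adjusted p = 0.46).

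Upper layer markers were mostly lower in R6/2 than in WT mice in both regions. Of 16 upper layer genes, 9 were higher in R6/2 cortex and 6 in R6/2 striatum. All 16 fell in R6/2 relative to WT cortex (25.1% of all genes). Relative to WT striatum, 14 fell in R6/2 (28.5% of all genes) and 1 rose. Of 23 deep layer genes, 13 were higher in R6/2 cortex and 7 in R6/2 striatum. A genotype difference was called toward striatum for 5 upper and 5 deep layer genes (11% of all genes), and toward cortex for 2 and 6 (13.2% of all genes). Without the cortex libraries high in Lhx8, 3 deep layer genes were called toward striatum. Cux2, a homeobox factor of upper layers, was at 15.2 to 22.1 CPM in R6/2 striatum and 65.8 to 90.7 CPM in R6/2 cortex, against 10.8 to 17.9 CPM in WT striatum and 97.6 to 122.8 CPM in WT cortex. It rose in R6/2 striatum and fell in R6/2 cortex, and its region difference was 3.98-fold in R6/2 and 7.38-fold in WT mice (adjusted p = 3e-09 by edgeR). Fezf2, which specifies subcortical projection neurons, lost a like amount in each region (log2 -0.81 in striatum and -0.77 in cortex) and kept region differences of -3.45 in R6/2 and -3.41 in WT mice. Adamts2, a procollagen protease listed among upper layer markers, was higher in R6/2 cortex (log2 -0.43) and in WT striatum (log2 0.56).

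Interneuron and peptide genes differed among themselves. Of 18 interneuron genes, 6 were higher in R6/2 striatum and 8 in R6/2 cortex, beside 31.5% and 30% of all genes. Called genotype differences ran toward striatum for 5 (11% of all genes) and toward cortex for 2 (13.2% of all genes). Sst, somatostatin, was at 46.5 to 88.6 CPM in R6/2 striatum and 34.1 to 47.4 CPM in R6/2 cortex, against 80.1 to 155.2 CPM in WT striatum and 96.1 to 151.9 CPM in WT cortex. Cortex lost more than striatum, and Sst became higher in R6/2 striatum (log2 0.59, adjusted p = 6.4e-06 by edgeR), with no called difference in WT mice (log2 -0.21, adjusted p = 0.069). Vip, vasoactive intestinal peptide, kept a 28.3-fold excess in R6/2 cortex, against 45-fold in WT cortex (adjusted p = 0.011, and 0.084 and 0.089 without title replicate 3 or 4). Crh, corticotropin-releasing hormone, widened to an 8.64-fold excess in R6/2 cortex, against 2.55-fold in WT cortex, at a median of 0.163 CPM in R6/2 striatum. Of 21 neuropeptide genes, 8 were higher in R6/2 striatum and 10 in R6/2 cortex.

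Genes whose region turned round were few among the enriched sets. The 9 striatum-enriched genes called higher in R6/2 cortex were Cnr1, Sec14l3, Ace, Vwa7, Papln, Rab37, Syt9, Insrr and Lhx9. Of these, Lhx9 had no called difference in WT vehicle mice, and the R6/2 calls of Vwa7, Rab37, Syt9, Insrr and Lhx9 were lost without the cortex libraries high in Lhx8 (adjusted p of 0.096 to 0.25 by edgeR). Those of Vwa7, Rab37, Insrr and Lhx9 were also lost without the striatum libraries high in Neurod6 (adjusted p of 0.082 to 0.24), and that of Insrr with the animal as a block (adjusted p = 0.06). The 7 cortex-enriched genes called higher in R6/2 striatum included Lamp5, Tnnt2, Wt1, H60b, Pcdh20 and A4gnt. A4gnt had no called difference in WT vehicle mice, and the call of Pcdh20 was lost without the cortex libraries high in Lhx8 (adjusted p = 0.10) and without the striatum libraries high in Neurod6 (adjusted p = 0.53).

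Cnr1, the cannabinoid receptor CB1 of spiny neuron axons and of cortical interneurons, ranged from 87.1 to 129.003 CPM in R6/2 striatum (median 105.8) and from 114.9 to 149.7 CPM in R6/2 cortex (median 135.1). The WT level ranged from 413 to 519 CPM in striatum (median 445) and from 140.1 to 211 CPM in cortex (median 164). The regions overlapped in R6/2 and were fully apart in WT mice. The striatum was above the cortex in 0 of 10 R6/2 animals and in 10 of 10 WT animals. The log2 region difference was -0.37 ± 0.07 in R6/2 (SE, adjusted p = 1.2e-05 by edgeR) and 1.4 ± 0.07 in WT mice, a change of -1.76 ± 0.10 (adjusted p = 3.3e-16).

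Sec14l3, a member of the SEC14-like lipid-binding family, was at 0.0511 to 0.386 CPM in R6/2 striatum and 0.271 to 0.602 CPM in R6/2 cortex, against 2.87 to 6.88 CPM in WT striatum and 0.268 to 2.01 CPM in WT cortex. R6/2 striatum fell below every WT striatum library and near the level of 3 counts, and the region difference was -1.30 in R6/2 and 2.78 in WT mice. Ace, angiotensin-converting enzyme, was at 9.64 to 13.5 CPM in R6/2 striatum and 13.5 to 20.3 CPM in R6/2 cortex, against 27.2 to 46.5 CPM in WT striatum and 8.98 to 16.1 CPM in WT cortex. It fell in R6/2 striatum (log2 -1.69) and rose in R6/2 cortex (log2 0.46), and its region difference changed by -2.15 (adjusted p = 6.3e-16 by edgeR).

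Lamp5, a lysosome-associated membrane protein of upper layer neurons and interneurons, ranged from 71.8 to 106.7 CPM in R6/2 striatum (median 80.9) and from 34.3 to 74.4 CPM in R6/2 cortex (median 41.7). In WT mice it ranged from 96.5 to 127.2 CPM in striatum (median 103.98) and from 185 to 300.4 CPM in cortex (median 220.4). The striatum was above the cortex in 10 of 10 R6/2 animals and in 0 of 10 WT animals. Lamp5 fell in R6/2 cortex by 2.31 on the log2 scale and in R6/2 striatum by 0.35, and its region difference changed by 1.96 ± 0.13 (SE, adjusted p = 1.8e-14 by edgeR). Tnnt2, cardiac troponin T, was at 3.79 to 6.79 CPM in R6/2 striatum and 2.43 to 3.92 CPM in R6/2 cortex, against 1.36 to 2.71 CPM in WT striatum and 3.56 to 5.63 CPM in WT cortex. It rose in R6/2 striatum (log2 1.48) and fell in R6/2 cortex (log2 -0.51).

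**Figure D4:**
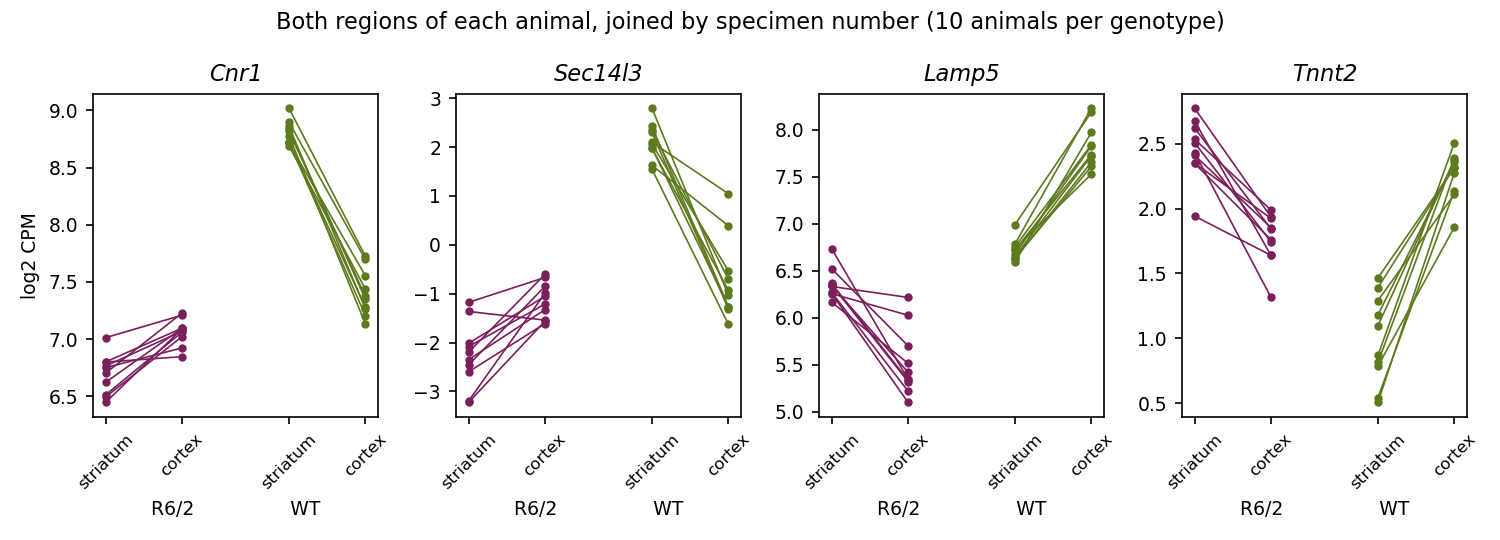
Each line joins the striatum and cortex libraries of 1 animal on a log2 CPM axis, with 10 R6/2 animals at left and 10 WT animals at right in each panel. Cnr1 slopes up toward cortex in all 10 R6/2 animals and down in all 10 WT animals, and Lamp5 slopes down in all 10 R6/2 animals and up in all 10 WT animals.

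The promoters of 3 turned genes and of 2 genes that kept their region are shown so that their letters can be compared. Each window runs from 250 bases before to 50 bases after a RefSeq transcript start on GRCm38.p6, the first listed where a gene has several, 5′ to 3′ on the gene's strand, here the plus strand for all. Cnr1 lies at chr4:33924014-33924313 (1 of 3 windows), Sec14l3 at chr11:4064603-4064902 and Lamp5 at chr2:136052089-136052388 (1 of 2 windows), all of which turned. Drd2 at chr9:49340153-49340452 and Slc17a7 at chr7:45163671-45163970 kept their region. Capitals mark the GC box (GGGCGG or its complement CCGCCC, bound by Sp1-type factors, overlapping matches counted) and the E-box of NeuroD-type factors (CAGATG or its complement CATCTG).
Cnr1: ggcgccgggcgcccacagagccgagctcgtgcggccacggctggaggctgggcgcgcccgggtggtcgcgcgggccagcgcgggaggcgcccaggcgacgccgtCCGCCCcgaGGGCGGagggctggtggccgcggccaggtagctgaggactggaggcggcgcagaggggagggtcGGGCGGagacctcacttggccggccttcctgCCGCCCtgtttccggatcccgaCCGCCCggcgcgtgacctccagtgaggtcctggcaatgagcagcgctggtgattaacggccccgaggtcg
Sec14l3: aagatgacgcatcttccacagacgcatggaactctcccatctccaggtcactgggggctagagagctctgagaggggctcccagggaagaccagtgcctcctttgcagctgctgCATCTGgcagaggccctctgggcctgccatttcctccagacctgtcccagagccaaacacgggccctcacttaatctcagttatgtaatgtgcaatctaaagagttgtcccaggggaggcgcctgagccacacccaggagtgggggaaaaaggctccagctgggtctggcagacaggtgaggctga
Lamp5: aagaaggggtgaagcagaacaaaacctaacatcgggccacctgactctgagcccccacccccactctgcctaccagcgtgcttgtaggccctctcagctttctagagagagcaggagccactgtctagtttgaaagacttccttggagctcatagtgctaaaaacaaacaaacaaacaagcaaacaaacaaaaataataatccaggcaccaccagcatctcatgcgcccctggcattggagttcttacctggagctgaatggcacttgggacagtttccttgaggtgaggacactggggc
Drd2: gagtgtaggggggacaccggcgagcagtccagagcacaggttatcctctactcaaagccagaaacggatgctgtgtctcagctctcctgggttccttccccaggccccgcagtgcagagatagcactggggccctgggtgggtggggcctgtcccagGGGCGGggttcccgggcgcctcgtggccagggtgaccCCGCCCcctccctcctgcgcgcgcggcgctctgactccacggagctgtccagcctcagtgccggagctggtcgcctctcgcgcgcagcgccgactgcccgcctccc
Slc17a7: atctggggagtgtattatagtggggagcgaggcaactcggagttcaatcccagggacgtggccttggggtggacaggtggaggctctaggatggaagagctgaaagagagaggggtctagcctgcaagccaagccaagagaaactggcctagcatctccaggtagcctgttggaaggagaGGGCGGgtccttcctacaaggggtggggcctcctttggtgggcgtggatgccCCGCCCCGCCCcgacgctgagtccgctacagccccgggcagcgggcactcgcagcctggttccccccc
The GC box matched 5 times in the Cnr1 window, 3 times in that of Slc17a7 and 2 times in that of Drd2, and its letters were in 35.7% of all 32851 mouse windows of the same length. The E-box letters matched 1 time, in the Sec14l3 window, and were in 17.2% of all windows. No cAMP response element (TGACGTCA, in 1.79% of all windows) lay in the 5 windows. GC content was 76.3% for Cnr1, 58.3% for Sec14l3, 50.7% for Lamp5, 70.3% for Drd2 and 63.7% for Slc17a7, beside a median of 52.7% over all windows. The windows of the turned genes therefore held both the highest and the lowest GC content of the 5.

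Several genes with the largest genotype differences were near the detection floor in 1 or both R6/2 regions. Abhd11os, a striatum-enriched noncoding transcript antisense to Abhd11, was at 0.166 to 0.546 CPM in R6/2 striatum and 0.198 to 0.474 CPM in R6/2 cortex, against 9.01 to 14.5 CPM in WT striatum and 0.57 to 0.901 CPM in WT cortex. Its log2 region difference was 0.44 in R6/2 (adjusted p = 0.031 by edgeR, 0.057 with the animal as a block and 0.13 without the cortex libraries high in Lhx8) and 4.03 in WT mice, a change of -3.59 ± 0.22 (SE, adjusted p = 4.3e-15). Gpx6, a glutathione peroxidase, was at 0.0273 to 0.193 CPM in R6/2 striatum and 0 to 0.0302 CPM in R6/2 cortex, against 5.29 to 16.8 CPM in WT striatum and 0 to 0.183 CPM in WT cortex. Both R6/2 regions lay around or under the level of 3 counts, so no fold between them is given. Ryr1, the skeletal muscle type ryanodine receptor, was well above that level and was chosen outside the ranking by size. It was at 3.99 to 9.53 CPM in R6/2 striatum and 4.16 to 9.39 CPM in R6/2 cortex, against 79 to 148.7 CPM in WT striatum and 18.8 to 36.2 CPM in WT cortex. The R6/2 regions overlapped and did not differ by the test (log2 0.17, adjusted p = 0.35), except without the cortex libraries high in Lhx8 (log2 0.63, adjusted p = 0.019).

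On the cortical side, Adam33, a metalloprotease, was at 0.216 to 0.673 CPM in R6/2 striatum and 0.674 to 1.79 CPM in R6/2 cortex, against 0.125 to 0.459 CPM in WT striatum and 5.56 to 12.2 CPM in WT cortex. Its log2 difference was -1.90 in R6/2 and -5.00 in WT mice, a change of 3.10 ± 0.29 (SE, adjusted p = 1.7e-10 by edgeR). Alox12b, a lipoxygenase, was at 0.0566 to 0.337 CPM in R6/2 cortex, against 3.0 to 5.53 CPM in WT cortex, and fell there by 4.11 on the log2 scale. Ipcef1, an interactor of cytohesin exchange factors, narrowed from both sides: it rose in R6/2 striatum (log2 1.56) and fell in R6/2 cortex (log2 -0.69), with region differences of -2.04 in R6/2 and -4.29 in WT mice. Mas1, a receptor of the angiotensin system, widened. It was at 0.153 to 0.85 CPM in R6/2 striatum and 5.05 to 8.27 CPM in R6/2 cortex, against 3.07 to 6.09 CPM in WT striatum and 11.9 to 18.4 CPM in WT cortex. Both regions fell and striatum fell more, so cortex exceeded striatum 16.2-fold in R6/2 and 3.15-fold in WT mice (adjusted p = 2.5e-11).

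The G protein families had members higher in either region. Among 19 adenylyl cyclase and G protein genes, 5 were higher in R6/2 striatum and 11 in R6/2 cortex, against 9 and 9 in WT mice. Over all genes, 31.5% were higher in striatum and 30% in cortex in R6/2, against 34.8% and 30.9% in WT mice. The genotype difference was called toward cortex for 9 and toward striatum for 1 (0 without the cortex libraries high in Lhx8, and 2 without the striatum libraries high in Neurod6 or with the animal as a block). Gnao1, the abundant brain G protein alpha subunit, was called slightly higher in R6/2 cortex (log2 -0.09) and higher in WT striatum (log2 0.36). Among 16 RGS genes, 6 were higher in each R6/2 region, against 9 in WT striatum and 6 in WT cortex, and 7 shifted toward cortex and 2 toward striatum (1 without the cortex libraries high in Lhx8). Rgs14 was higher in R6/2 cortex (log2 -0.43) and in WT striatum (log2 0.93), and Rgs4 had no called difference in R6/2 (log2 0.04, adjusted p = 0.60 by edgeR), against 0.76 in WT mice. Both encode proteins that speed the shutdown of G protein signalling. Of 10 dopamine genes, 9 were higher in R6/2 striatum, with medians of 0.85 in R6/2 and 1.08 in WT mice.

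Ion channel families were mixed. Among all genes tested, 31.5% were higher in striatum and 30% in cortex in R6/2, against 34.8% and 30.9% in WT mice. A genotype difference toward cortex was called for 13.2% of all genes. Of 18 ionotropic glutamate receptor genes, 4 were higher in R6/2 striatum and 12 in R6/2 cortex, against 7 and 8 in WT mice, and the genotype difference was called toward cortex for 9, or for 5 without the cortex libraries high in Lhx8. Grik2, a kainate receptor subunit, differed 1.21-fold in R6/2, against 2.76-fold in WT mice (adjusted p = 1.3e-13 by edgeR). Of 27 potassium channel genes, 10 were higher in R6/2 striatum and 14 in R6/2 cortex, against 12 and 13 in WT mice, and their median log2 difference was -0.27 in R6/2 and 0.08 in WT mice. Kcnj4, an inward rectifier, had no called difference in R6/2 (log2 -0.06, adjusted p = 0.50), against 0.78 in WT mice. Kcnj9, a G protein-gated inward rectifier, narrowed from the cortical side, with 2.47-fold in R6/2 and 4.39-fold in WT mice. Of 14 GABA-A receptor subunit genes, 4 were higher in R6/2 striatum and 6 in R6/2 cortex, against 6 and 6 in WT mice. Of 12 serotonin receptor genes, 5 were higher in striatum and 7 in cortex in each genotype, and Htr4 narrowed to 1.49-fold in R6/2 (not called without the striatum libraries high in Neurod6, adjusted p = 0.29), against 3.94-fold in WT mice. Of 16 phosphodiesterase genes, 9 were higher in R6/2 striatum and 5 in R6/2 cortex.

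In the opioid and cannabinoid system 3 of 13 genes were higher in R6/2 striatum and 8 in R6/2 cortex (31.5% and 30% of all genes), against 6 and 7 in WT mice (34.8% and 30.9%). Whether these counts differ between the genotypes was not tested. Faah, the enzyme that degrades anandamide, was at 27.4 to 35.1 CPM in R6/2 striatum and 68.7 to 87.8 CPM in R6/2 cortex, against 18.9 to 24.7 CPM in WT striatum and 88.4 to 114.6 CPM in WT cortex. The regions were fully apart in each genotype. It rose in R6/2 striatum and fell in R6/2 cortex, and its log2 difference was -1.30 in R6/2 and -2.27 in WT mice (adjusted p = 5.3e-14 by edgeR).

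Oligodendrocyte genes were striatal in both genotypes. Among all genes, 31.5% were higher in R6/2 striatum, 30% in R6/2 cortex and 34.8% in WT striatum. For 24.1% a genotype difference was called. All 16 oligodendrocyte genes were higher in striatum in both genotypes, with medians of 1.04 in R6/2 and 1.13 in WT mice. The genotype difference was called toward cortex for 2 and toward striatum for 0 (6 and 0 with the animal as a block). Without the striatum libraries high in Neurod6, 0 of the 16 oligodendrocyte genes were called toward cortex and 1 toward striatum. Their summed level was 7495 to 11751 CPM in R6/2 striatum and 3823 to 4897 CPM in R6/2 cortex, against 10855 to 13271 CPM in WT striatum and 3673 to 6429 CPM in WT cortex. Mbp, myelin basic protein, had a median of 3908 CPM in R6/2 striatum and 1832 CPM in R6/2 cortex, against 4764 CPM in WT striatum and 2066 CPM in WT cortex. Its region difference was 1.13 in R6/2 and 1.25 in WT mice (adjusted p = 0.41 by edgeR). Of 14 microglial genes, 13 were higher in R6/2 striatum with medians of 0.44 in R6/2 and 0.55 in WT mice. Of 16 astrocyte genes, 3 were higher in R6/2 striatum and 5 in R6/2 cortex, or 4 and 2 without the cortex libraries high in Lhx8, with 3 in cortex without the striatum libraries high in Neurod6. Where oligodendrocyte and microglial levels move with the neuronal results, their part in those results was not tested.

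Vascular genes differed between the regions by small amounts. Among all genes, 31.5% were higher in R6/2 striatum, 30% in R6/2 cortex and 34.8% in WT striatum. For 13.2% a genotype difference was called toward cortex. Of 12 endothelial and mural genes, 1 was higher in R6/2 striatum and 4 in R6/2 cortex, against 8 higher in WT striatum, and 4 had a genotype difference called toward cortex. With the animal as a block, 3 were higher in each R6/2 region, and without the cortex libraries high in Lhx8 only 1 genotype difference was called and 0 were higher in R6/2 striatum. Without the striatum libraries high in Neurod6, 2 were higher in R6/2 striatum. The genotype difference was called toward cortex for 6 there, and likewise for 6 with the animal as a block. Cdh5, vascular endothelial cadherin, had log2 differences of -0.21 in R6/2 and 0.15 in WT mice. Flt1, a receptor of vascular endothelial growth factor, had -0.16 in R6/2 and 0.14 in WT mice, with the R6/2 value not called without the cortex libraries high in Lhx8 (adjusted p = 0.21 by edgeR). The libraries of the regions overlapped for both genes in each genotype.

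All 18 cholesterol synthesis genes were higher in cortex in each genotype, with medians of -0.56 in R6/2 and -0.48 in WT mice. Of 22 immediate early genes, 12 were higher in R6/2 cortex and 10 were not called, against 10 higher in WT cortex. Bdnf, the neurotrophin that cortical neurons supply to the striatum, was at 0.249 to 1.57 CPM in R6/2 striatum and 14.3 to 22.4 CPM in R6/2 cortex, against 0.371 to 1.24 CPM in WT striatum and 23.3 to 47 CPM in WT cortex. Its region difference was -4.72 in R6/2 and -5.24 in WT mice (genotype difference 0.52, adjusted p = 0.21 by edgeR), and it fell in R6/2 cortex by 0.79.

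The other lists are given by count, to be read against the 31.5% of all genes higher in R6/2 striatum and the 30% higher in R6/2 cortex. Of 20 interferon response genes, 4 were higher in R6/2 striatum (8 with the animal as a block) and 2 in R6/2 cortex, and of 18 clock genes 5 were higher in each region. Of 20 ephrin and semaphorin genes, 4 were higher in R6/2 striatum and 12 in R6/2 cortex. Of 7 oligodendrocyte precursor genes, 3 were higher in R6/2 striatum and 1 in R6/2 cortex (0 without the cortex libraries high in Lhx8). Among markers of tissue beside the dissections, 7 of 14 choroid plexus and ependymal genes, 3 of 14 septal, pallidal or thalamic genes and 8 of 12 hippocampal or claustral genes were higher in R6/2 striatum, and 2, 6 and 3 were higher in R6/2 cortex. Without the striatum libraries high in Neurod6, 5 septal, pallidal or thalamic genes were higher in R6/2 striatum. With either set of libraries left out, 1 choroid plexus or ependymal gene was higher in R6/2 cortex.

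**Figure D5:**
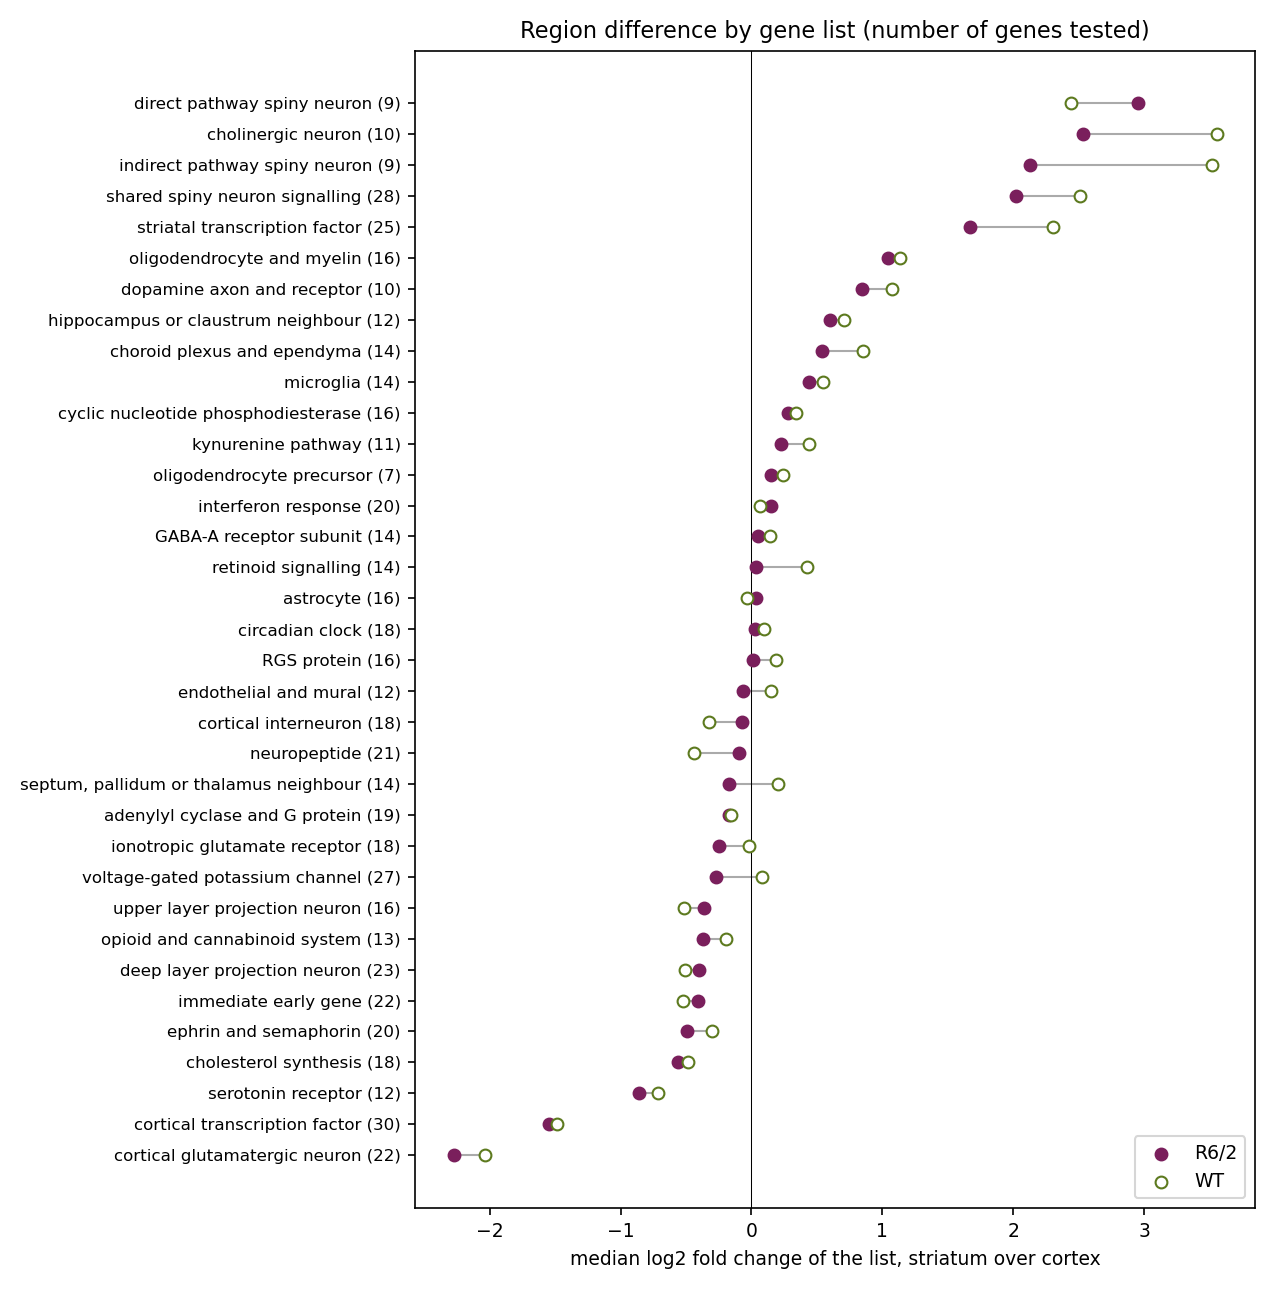
Each row is a gene list with its number of genes tested, with the median log2 fold change of striatum over cortex in R6/2 mice (filled) and WT mice (open). Lists of spiny neuron and cholinergic genes lie to the right of 0 in both genotypes and most of them lie nearer to 0 in R6/2, except the direct pathway list at 2.96 in R6/2 and 2.45 in WT mice. Taken gene by gene, the median genotype difference of the direct pathway list was -0.48.

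The kynurenine pathway, the target of the compound given in the other arm, was measured in vehicle mice through 11 genes, of which 4 were higher in R6/2 striatum and 2 in R6/2 cortex (3 and 0 without the cortex libraries high in Lhx8). Kmo, kynurenine 3-monooxygenase, was at 0.108 to 0.335 CPM in R6/2 striatum and 0.0283 to 0.491 CPM in R6/2 cortex, against 0.0655 to 0.517 CPM in WT striatum and 0.0536 to 0.297 CPM in WT cortex. All 4 groups overlapped at a few counts per library, and a region difference in R6/2 was not detectable at this depth (log2 0.23, adjusted p = 0.61 by edgeR). Tdo2, tryptophan 2,3-dioxygenase, was called higher in R6/2 cortex (log2 -0.53, adjusted p = 0.015), though not without the cortex libraries high in Lhx8 (adjusted p = 0.097).

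The mouse Htt gene had more transcript in cortex in both genotypes. It was at 129.1 to 172 CPM in R6/2 striatum and 196 to 238 CPM in R6/2 cortex, against 123.9 to 185 CPM in WT striatum and 167 to 234 CPM in WT cortex. The regions were apart in R6/2 and overlapped in WT mice. The log2 difference was -0.51 ± 0.06 in R6/2 and -0.31 ± 0.06 in WT mice (SE), and the genotype difference of -0.20 was not called (adjusted p = 0.089 by edgeR), but was with the animal as a block (-0.20, adjusted p = 0.0088) and without the striatum libraries high in Neurod6 (-0.30, adjusted p = 0.0094). Reads of the human transgene fragment that align to the mouse gene could be counted with it, and their part in the result was not tested.

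Female and male R6/2 mice gave no gene with a called sex difference in the region difference (0 of 17754 by edgeR, 0%), the lowest adjusted p being 0.918, with 776 genes at an unadjusted p under 0.05.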

How the data were processed

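The authors sequenced total RNA of each tissue on an Illumina instrument and deposited a table of estimated (expected) counts per gene and a table of FPKM values. Per the submitters' processing notes, CASAVA 1.8.2 was used. The mapping and counting software and the genome version are not given in the sources used. The FPKM columns were used by group only, because 13 of 160 matched their own count column best while all 160 matched within their group. They were put on the log2(FPKM + 1) scale for limma 3.58.1.

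The deposited estimated counts were rounded, filtered with filterByExpr and scaled by TMM in edgeR 4.0.16 (R 4.3.3). The 17754 genes tested held 99.97% of the counts. A quasi-likelihood fit of 40 vehicle libraries with 8 means (genotype by region by sex) and no animal term gave each region difference and the genotype difference between them, at a Benjamini-Hochberg adjusted p under 0.05. The 40 libraries of the treated arm were fitted alone. Folds are fitted values, CPM values are TMM-scaled, and ± in the text is a standard error. The p-values of the vehicle fit rest on each gene's spread around the 8 means, pooled over the 40 libraries. That fit treats the striatum and cortex of an animal as independent libraries. With the animal as a block, 5517 genotype differences were called, against 4285 without it. The method was tested on simulated data. Counts of estimated reads give counting error only, and differences within a few counts per library are not detectable.

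Specimen numbers that differ by 80 were taken as the regions of 1 animal. All 20 vehicle pairs deviated together from their group means (r from 0.229 to 0.721, median 0.549), and each library correlated best with its own partner. All 80 brain libraries checked matched their labelled sex.

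The comparison, its gene lists and the named genes were chosen with earlier results of these data known. Named genes were the 12 largest differences per direction in R6/2 and the 10 largest genotype differences per direction, at a mean of at least 1 CPM and without predicted genes. Up to 6 per direction called in opposite directions, up to 4 members of each list by p in either test, Kmo and Htt were added. Some genes that the rule names are not reported here. Outside that rule, Ryr1, Ace, Chat, Lhx8, Lhx9, Rab37, Insrr, Syt9, H60b, Pcdh20, Wt1, A4gnt, Isl1, Rgs9, Scn4b, Ankrd63, Six3, Cyp26b1 and Adamts2 were chosen after their values were seen.

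Alternatives were DESeq2 1.42.0, other size factors, no filter, no sex term, the animal or the title's replicate number as a block, the run of library numbers, FPKM, and each title replicate left out. Leaving out cortex libraries with Lhx8 at 0.5 CPM or more, or striatum libraries with Neurod6 at 1 CPM or more, was chosen after seeing the data.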

Additional observations from a re-analysis of the deposited data

Results flagged for a closer look

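The region difference in R6/2 mice differed from that in WT mice at 4285 genes by the test of the genotype difference, and at 276 genes the regions were called in opposite directions. These are the values described above, and the difference between the genotypes was itself tested for each gene.

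Over 36 genes in 4 groups of 10 libraries each, 10 sets of values had a lowest or highest library set apart from the others by Dixon's ratio, and chance alone gives about 1 in 20. The ratio is the gap as a share of the range, both taken on the log2 CPM scale, while the levels beside it are in CPM. It was 0.55 for Penk in WT striatum, where 1 library at 2099 CPM stood above 1255 to 1582 CPM. The same WT striatum library was also the highest for Lamp5 (ratio 0.518, 127.2 CPM above 96.5 to 110.3 CPM) and for Sst (0.542, 155.2 CPM above 80.1 to 108.4 CPM), and the lowest for Htt (0.478, 123.9 CPM below 150.2 to 185 CPM). In R6/2 cortex, Htt was lowest in 1 library (0.552, 196 CPM below 218 to 238 CPM), Igfn1 highest in another (0.479, 17.5 CPM above 10.2 to 13.5 CPM) and Tnnt2 lowest in a further one (0.48, 2.43 CPM below 3.06 to 3.92 CPM). In R6/2 striatum, Tnnt2 was lowest in 1 library (0.489, 3.79 CPM below 5.04 to 6.79 CPM) and Abhd11os in another (0.473, 0.166 CPM below 0.30 to 0.546 CPM). In WT cortex, Adam33 was lowest in 1 library (0.594, 5.56 CPM below 8.87 to 12.2 CPM).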

How the results depend on the processing

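Of 237 counts and shares recomputed under an alternative, 231 stayed within 1.5 times the reported value and 6 did not. Without the cortex libraries high in Lhx8, the genotype difference was called for 2326 genes, 1043 toward striatum and 1283 toward cortex, and 3.02% of cortex-enriched genes had a larger difference in R6/2. That fit kept 4 R6/2 and 7 WT cortex libraries. On FPKM values, 3451 genotype differences were called toward striatum and 2.86% of striatum-enriched genes had a larger difference, and the cause was not tested. With sets chosen at a log2 difference of at least 2, 41.8% of striatum-enriched and 44.2% of cortex-enriched genes had a smaller difference in R6/2. Of 2898 gene values recomputed, 2726 kept direction and side of the threshold, 35 gained the call and 3 turned. All 3 turned on FPKM values in the genotype difference (Ido1 at -0.81, Slc30a3 at 0.51 and Fezf2 at 0.34), and the cause was not tested. The rest lost the call in the same direction. Genes within a few counts of the floor, such as Gpx6, Kmo and Alox12b, are limited by depth.

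Leaving out each title replicate (8 libraries) gave 10159 to 10274 region calls in R6/2 mice, 10839 to 11192 in WT mice and 3134 to 4136 genotype differences. With the animal as a block, 11785, 12411 and 5517 were called. The titles' replicate numbers do not pair the regions: 7 of 20 such pairs correlated over 0.1 (median -0.116), and 7 of 20 correlated best with their own number. That replicate block gave 10721, 11430 and 3982 calls. DESeq2 gave 10978, 11567 and 4554.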
